A study of Mus musculus with 140 samples.

Results

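The 43 genes described here encode the proteins that copy DNA in S phase, from the licensing of replication origins to the supply of deoxynucleotides, and they were taken from 18193 genes that the array annotation names. Each gene was represented by 1 probe set, the one with the highest mean signal among those annotated to that gene alone, on either of the 2 Affymetrix mouse arrays, A and B, used for every sample. All 43 passed the filter on dim signals, as did 14558 of the 18193 named genes. The cells were CCE, a male mouse embryonic stem cell line of strain 129/Sv, and RNA was hybridised from 70 samples in 9 daily courses. In 7 courses the cells carried a vector with an shRNA, against Nanog, Oct4, Sox2, Esrrb, Tbx3, Tcl1 or Mm343880, and in the eighth they were given 5 µM retinoic acid with no leukemia inhibitory factor (LIF). In the ninth course, the comparison for all others, cells carried the H1P vector with no shRNA. Transduced cells were kept in 1000 units/ml LIF and purified by sorting for GFP on each day, and day 0 was 48 hours after transduction. The retinoic acid course is not described as transduced or sorted, so it differs from the empty vector cells in more than the agent. The Mm343880 and retinoic acid courses had 7 days, from 0 to 6, and all other courses had 8 days, from 0 to 7. Each day was 1 sample with no repeat transduction, so p-values measure the scatter of samples round smooth curves of time within a course. All 8 comparisons share the same empty vector samples.

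A replication origin is bound by the origin recognition complex, encoded by the Orc genes. Cdc6 and Cdt1 then load the Mcm2-7 ring on it in G1 phase. At the start of S phase, kinases together with Mcm10, Cdc45 and the GINS complex turn that ring into a moving helicase. Behind it, primase and the DNA polymerases build new strands on templates covered by replication protein A, held to them by the Pcna clamp. Transcription of many of these genes rises at the G1/S boundary under E2F factors. Mouse embryonic stem cells cycle fast with a short G1 phase, and a large part of an undisturbed culture is in S phase. In bulk samples like these, fewer cells in S phase and less RNA of these genes in each cell cannot be told apart.

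The targeted gene was lower than in empty vector cells on 8 of 8 days in each of the 6 shRNA courses whose target is named by gene. Log2 differences over days 4 to 6 ran from -3.24 (Esrrb) to -2.01 (Tcl1). For Mm343880 the level of the target was not used here. Median signals were 236.2 to 382.9 on A arrays and 64.5 to 128.5 on B arrays, and Actb 3′/5′ signal ratios were 0.945 to 1.292. Gapdh 3′/5′ ratios were high in Mm343880 shRNA cells, at 0.874 to 0.898 (A) and 0.930 to 1.057 (B) on days 4 to 6, against 0.738 to 0.783 and 0.816 to 0.853 in empty vector cells. Single samples of other courses came near, such as those of day 6 in Nanog (0.888 on A) and Oct4 shRNA cells (0.927 on B). The part of these ratios in the Mm343880 differences was not tested. No pair of samples stood out as a copy, the highest correlation between any 2 arrays being 0.983 on A and 0.941 on B. Pluripotency markers summed to 152000 to 175600 over the 25 listed genes in empty vector cells. Each of the 25 was above the table median on at least 1 of the 8 days. That also held over the days of the retinoic acid course, so it could not tell the cells apart. In the retinoic acid course the sum had dropped to 5884 to 9670 on days 4 to 6, against 153200 to 175500 in empty vector cells.

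Because many genes of this group share E2F control, promoter sequence was set beside their levels. The RefSeq promoter table (GRCm38.p6), which holds 250 bases before and 50 bases after a gene's start, had windows for 36 of the 43 genes. An E2F-type sequence, searched as TTTCGCGC, TTTGGCGC or TTTCCCGC on both strands, was in windows of 13 of these 36 genes (36.1%). Of 27025 genes with a window 2.1% held one. The 13 were Orc1, Orc3, Cdc6, Cdt1, Mcm3, Mcm5, Mcm6, Mcm7, Gins3, Pola1, Pold1, Rfc3 and Lig1. The CCAAT box, searched as CCAAT on both strands, was in 63.9% of the 36 and in 41.1% of the 27025. TATAAA was in 8.3% against 15.7%, and the CHR letters TTTGAA, known from promoters of mitotic genes, in 16.7% against 20.2%. A match describes letters and is not a measured binding site. Matches of the E2F type on opposite strands can overlap each other, as in Mcm5 and Mcm6.

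Windows of 6 genes are printed 5′ to 3′ on the strand of the gene. The first 4 are E2F-type promoters of genes that were low in several courses. Mcm10 and Tk1, which were among the most widely lowered genes, hold no full match. The Mcm10 window ends in TTTGGCG, which is TTTGGCGC without its last letter, so a match across the window edge could not be seen. Capitals mark E2F-type sequences and CCAAT boxes on either strand.
Mcm6, chr1:128359656-128359955, minus strand: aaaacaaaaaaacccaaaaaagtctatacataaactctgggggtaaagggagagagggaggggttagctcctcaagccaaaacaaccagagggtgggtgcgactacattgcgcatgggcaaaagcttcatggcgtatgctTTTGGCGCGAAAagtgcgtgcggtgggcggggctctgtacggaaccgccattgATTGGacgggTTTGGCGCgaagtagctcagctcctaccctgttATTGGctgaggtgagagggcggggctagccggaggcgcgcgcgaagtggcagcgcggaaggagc
Mcm3, chr1:20820263-20820562, minus strand: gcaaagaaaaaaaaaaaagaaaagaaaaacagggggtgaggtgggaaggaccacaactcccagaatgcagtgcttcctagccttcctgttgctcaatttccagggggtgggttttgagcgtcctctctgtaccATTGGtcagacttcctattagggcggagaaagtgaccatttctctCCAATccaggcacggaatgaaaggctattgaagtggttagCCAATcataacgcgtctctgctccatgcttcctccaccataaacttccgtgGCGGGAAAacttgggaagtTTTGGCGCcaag
Mcm5, chr8:75109259-75109558, plus strand: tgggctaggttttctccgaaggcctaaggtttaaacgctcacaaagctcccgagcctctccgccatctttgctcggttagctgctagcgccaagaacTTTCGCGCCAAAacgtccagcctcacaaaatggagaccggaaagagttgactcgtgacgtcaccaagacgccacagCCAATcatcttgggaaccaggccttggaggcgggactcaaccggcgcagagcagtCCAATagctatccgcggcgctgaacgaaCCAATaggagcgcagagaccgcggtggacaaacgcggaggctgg
Orc1, chr4:108579204-108579503, plus strand: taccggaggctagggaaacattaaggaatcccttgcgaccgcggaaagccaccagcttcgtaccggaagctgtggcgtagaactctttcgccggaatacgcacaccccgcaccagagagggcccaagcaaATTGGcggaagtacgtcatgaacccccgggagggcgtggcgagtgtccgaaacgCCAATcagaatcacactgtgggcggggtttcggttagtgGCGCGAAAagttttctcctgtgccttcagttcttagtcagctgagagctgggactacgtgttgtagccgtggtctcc
Mcm10, chr2:5012742-5013041, minus strand: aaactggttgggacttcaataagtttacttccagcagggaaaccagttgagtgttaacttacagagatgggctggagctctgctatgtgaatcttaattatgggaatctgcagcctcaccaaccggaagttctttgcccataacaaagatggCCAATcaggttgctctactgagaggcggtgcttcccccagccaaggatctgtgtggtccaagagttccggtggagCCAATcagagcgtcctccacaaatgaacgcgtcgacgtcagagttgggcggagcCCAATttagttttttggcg
Tk1, chr11:117825965-117826264, minus strand: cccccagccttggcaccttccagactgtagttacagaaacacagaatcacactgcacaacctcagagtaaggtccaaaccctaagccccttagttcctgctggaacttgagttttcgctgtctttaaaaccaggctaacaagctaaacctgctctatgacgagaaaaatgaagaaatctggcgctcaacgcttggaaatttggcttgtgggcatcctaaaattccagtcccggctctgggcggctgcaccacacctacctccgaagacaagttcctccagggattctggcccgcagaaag
In Mcm6 the E2F-type matches begin at bases -110, -106 and -47 relative to the start, and the first 2 of them run into each other on opposite strands. In Mcm5 they begin at -153 and -149. In Orc1 a single one begins at -27.

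Members of the group were lower than in empty vector cells over days 4 to 6 mainly after retinoic acid, after loss of Nanog, Oct4 or Sox2, and in the Mm343880 course. A gene was called where its difference had an adjusted p under 0.05 in limma, with adjustment over all 14558 genes. After retinoic acid 26 of 43 members were called lower, where 23.5% of all genes were, and 2 were called higher, where 27.5% of all genes were. The Oct4 course had 23 called lower (all genes: 10.7% lower and 6.66% higher) and the Sox2 course also had 23 (all genes: 12.2% lower and 12.1% higher). No member was called higher in either course, and at an unadjusted p under 0.05 the number higher was also 0 in both. The Nanog course had 15 lower and 2 higher (all genes: 10.0% and 12.0%). The Mm343880 course, whose Gapdh ratios were above those of the empty vector on these days, had 12 lower and 1 higher (all genes: 7.19% and 7.55%). Median log2 differences over the 43 genes were -0.68 after retinoic acid, -0.49 for Oct4, -0.41 for Sox2, -0.29 for Nanog and -0.26 for Mm343880. Over all genes tested, the medians of these 5 courses lay between -0.10 and 0.04. When the late difference was instead taken as the change from days 0 and 1 beyond that of empty vector cells, limma called 21 members after retinoic acid, but 2 in the Oct4, 2 in the Sox2, 3 in the Nanog and 3 in the Mm343880 course. Medians by that measure were -0.57, -0.27, -0.36, -0.26 and -0.20, and 25, 14, 21, 11 and 14 members were lower at an unadjusted p under 0.05.

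In the Esrrb, Tbx3 and Tcl1 courses the share of members called lower was not far from that of all genes. Esrrb shRNA cells had 4 members lower and 1 higher (all genes: 5.30% and 7.44%), Tbx3 shRNA cells 4 and 2 (all genes: 5.69% and 6.24%), and Tcl1 shRNA cells 3 and 1 (all genes: 4.05% and 5.05%). Median differences were -0.11, -0.04 and -0.15. Of the calls in each course, those that held without any 1 sample numbered 20 of 28 after retinoic acid, 16 of 23 in the Oct4, 17 of 23 in the Sox2, 11 of 17 in the Nanog, 3 of 13 in the Mm343880, 3 of 5 in the Esrrb, 2 of 6 in the Tbx3 and 1 of 4 in the Tcl1 course. A call is said to be lost without a sample where its adjusted p was then no longer under 0.05. Only samples of the courses in a comparison were left out for its calls, although all 70 samples share the estimate of spread. The small counts moved with single samples. The Esrrb count of 5 fell to 3 without the Esrrb shRNA sample of day 5. The Tbx3 count of 6 fell to 2 without the Tbx3 shRNA sample of day 5. The Tcl1 count of 4 fell to 1 without the empty vector sample of day 4, and to 2 without the Tcl1 shRNA sample of day 5. The Mm343880 count of 13 fell to 6 without its last sample, that of day 6. After quantile normalization the Tbx3 split was 6 lower and 1 higher.

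**Figure D1:**
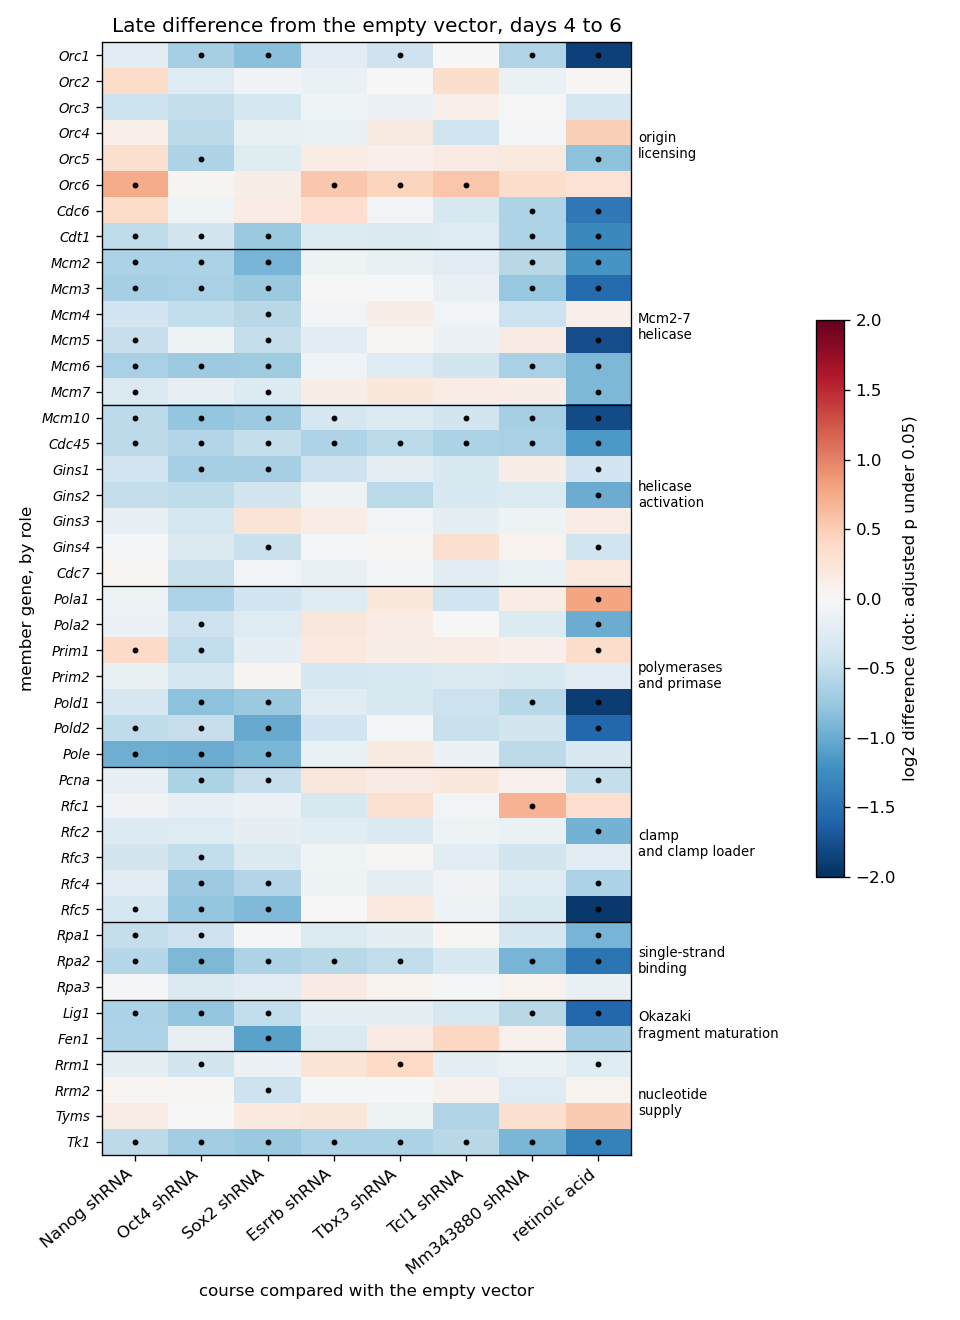
Log2 difference from empty vector cells over days 4 to 6 for 43 genes (rows, by role) in 8 courses (columns), with blue for lower, red for higher and a dot for an adjusted p under 0.05. The retinoic acid column is darkest and holds 26 blue dots, and the rows of Cdc45 and Tk1 have a dot in each of the 8 columns.

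Day by day, the median of the group fell below the empty vector in some courses and stayed near it in others, while single members lay on both sides. After retinoic acid on day 5, for example, 32 of 43 genes were below the empty vector and the upper quartile was at 0.01. The median of all genes tested was 0.08 on that day. In Sox2 shRNA cells the median of the 43 genes stood at 0.04 from the empty vector of the same day on day 0, at -0.18 on day 1, at -0.43 on day 4 and at -0.54 on day 7. In Nanog shRNA cells the median stayed between -0.08 and -0.01 through day 3, was -0.21 on day 4 and reached -0.53 on day 7. The median was thus near the empty vector for longer in Nanog than in Sox2 shRNA cells, a difference in timing that was not tested. Oct4 shRNA cells began at -0.14, and from day 4 on the median was between -0.52 and -0.41, with 39 to 41 of 43 genes below the empty vector. All genes tested also had a median below 0 in that course, at -0.10 on day 0 and between -0.19 and -0.02 from day 4 on. Retinoic acid cells stood at -0.13 on day 0, at -0.78 on day 3 and at -0.84 on day 6, where the medians of all genes were -0.15, 0.16 and 0.08. Medians on day 4 were -0.02 in Esrrb, 0.05 in Tbx3 and -0.15 in Tcl1 shRNA cells. Medians on day 7 were -0.38 in Esrrb, -0.20 in Tbx3 and -0.17 in Tcl1 shRNA cells, and Mm343880 shRNA cells reached -0.40 on day 6. In the empty vector course itself the median of the 43 genes, set against its own day 0, stayed between -0.10 and 0.01.

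**Figure D2:**
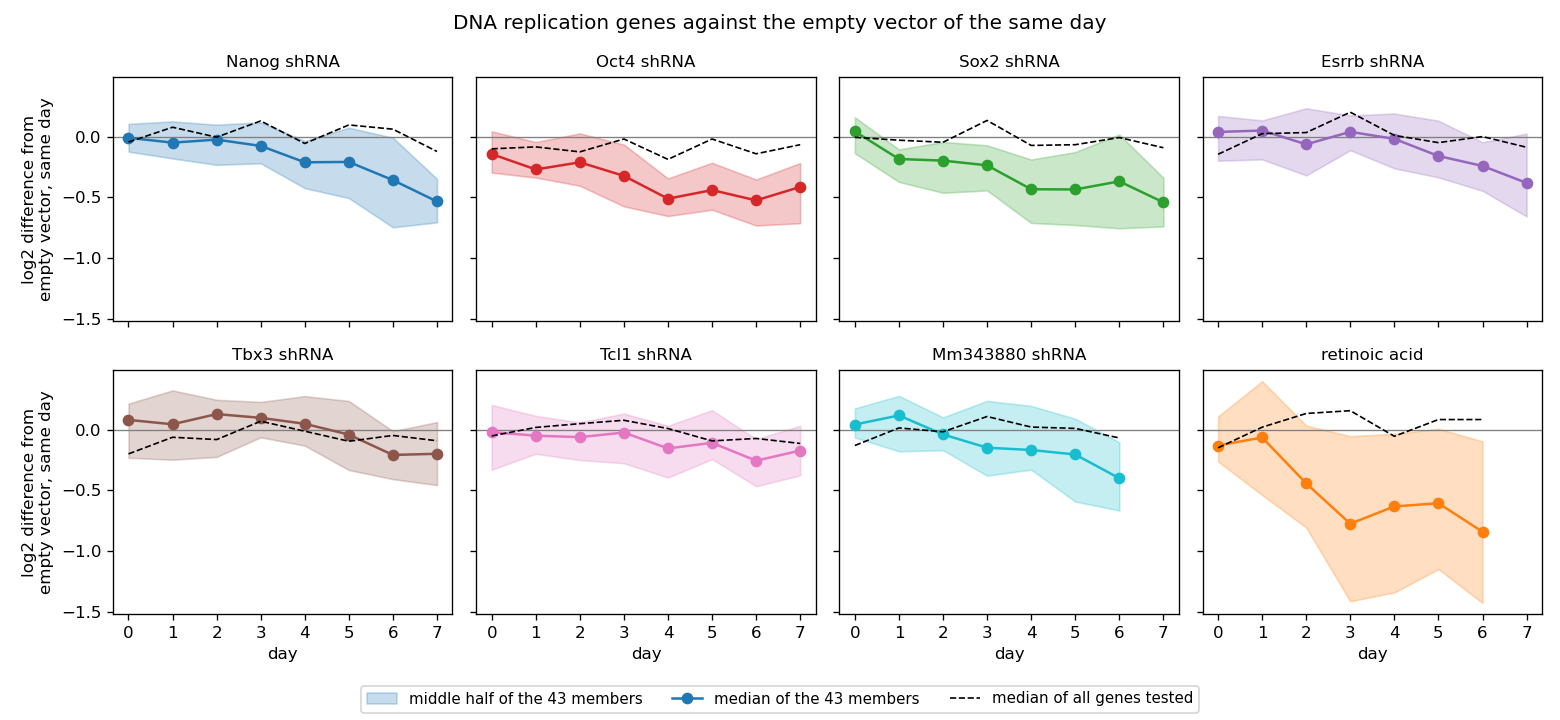
Median log2 difference from the empty vector sample of the same day over 43 genes (points and line) with the band between the quartiles, and the median of all genes tested (dashed), by day in 8 courses. On the last day the line lies at -0.84 after retinoic acid, at -0.53 in Nanog and -0.54 in Sox2 shRNA cells, and at -0.17 in Tcl1 shRNA cells.

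Among the 8 origin licensing genes, Orc1 and Cdt1 were lower in several courses while Orc6 was higher in some. Orc1 encodes the largest subunit of the origin recognition complex. Its signals on days 4, 5 and 6 were 459.9, 299 and 354 after retinoic acid and 712, 742 and 936 in Sox2 shRNA cells, against 1450.1, 1618 and 1212 in empty vector cells. None of the treated samples reached the lowest empty vector sample. Orc1 was 3.65-fold lower after retinoic acid (-1.87 ± 0.12 (SE), adjusted p = 9.10e-17) and 1.78-fold lower after Sox2 loss (-0.83 ± 0.12 (SE), adjusted p = 1.08e-06). It was also called lower in the Oct4 (log2 -0.67 ± 0.12 (SE), adjusted p = 6.91e-05) and Tbx3 courses (-0.41 ± 0.12 (SE), adjusted p = 0.0208), the Tbx3 call being lost without any 1 of the Tbx3 shRNA samples of days 4 and 5 and the empty vector sample of day 5 (adjusted p = 0.051 to 0.137). On days 0 and 1 Orc1 already differed by -0.395 in the Tbx3 and -0.475 in the Sox2 course. Its change beyond the empty vector was -0.02 (adjusted p = 0.983) and -0.355 (adjusted p = 0.434) there. In the Mm343880 course Orc1 differed by -0.60 ± 0.12 (SE), adjusted p = 0.000606, a call that was lost without the Mm343880 shRNA sample of day 6 (adjusted p = 0.0671). The dimmer Orc1 probe set, with a mean signal of 725, did not show this. It differed by 0.32 after retinoic acid, by 0.24 in the Sox2 course and by 0.07 in the Oct4 course, and in the Mm343880 course it was called higher by 0.78 (adjusted p = 0.0373). The Orc1 result thus rests on 1 of its 2 probe sets.

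Cdt1, which brings the Mcm ring to origins, had 6152, 6922 and 6861 on days 4 to 6 after retinoic acid and 11266, 8847 and 8697 in Sox2 shRNA cells, against 16532, 13776 and 19659 in empty vector cells. Both courses lay below all 3 empty vector samples, and Cdt1 was 2.44-fold lower (-1.29 ± 0.14 (SE), adjusted p = 5.61e-11) and 1.68-fold lower (-0.75 ± 0.13 (SE), adjusted p = 2.61e-05). The empty vector level was itself uneven, ranging from 11992 on day 0 to 20269.7 on day 7. In the Nanog course the difference was -0.50 ± 0.13 (SE), adjusted p = 0.00449, lost without the Nanog shRNA sample of day 5 (adjusted p = 0.0603). Cdt1 was also called lower in the Oct4 (-0.37 ± 0.13 (SE), adjusted p = 0.0463) and Mm343880 courses (-0.62 ± 0.14 (SE), adjusted p = 0.00109), where the ranges overlapped. These calls were lost without any 1 of the Oct4 shRNA samples of days 0, 1, 2, 3, 4, 5, 6 and 7 and the empty vector samples of days 2, 3, 4 and 6 (adjusted p = 0.0505 to 0.187) and without the Mm343880 shRNA sample of day 5 (adjusted p = 0.0688). Cdc6, the partner of Cdt1 in loading, was called lower in 2 courses. It had 696, 781 and 497 after retinoic acid, against 2166, 1675 and 1720.5 in empty vector cells, with no overlap (log2 -1.43 ± 0.18 (SE), adjusted p = 5.17e-09). In Mm343880 shRNA cells it had 1134, 1258 and 1193 (log2 -0.62 ± 0.18 (SE), adjusted p = 0.0147), and that call was lost without any 1 of the Mm343880 shRNA sample of day 6 and the empty vector sample of day 4 (adjusted p = 0.0588 to 0.712). Whether Cdc6 differs between these and the other courses was not tested.

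Orc6, the smallest subunit of the complex, went against the group. Its signals on days 4, 5 and 6 were 2088, 3037 and 3145 in Nanog shRNA cells, against 1405, 1510.5 and 1949 in empty vector cells. All 3 Nanog shRNA samples were above all 3 empty vector samples, and Orc6 was 1.66-fold higher (0.73 ± 0.15 (SE), adjusted p = 0.000187). It was also called higher in the Esrrb (0.53, adjusted p = 0.0102), Tbx3 (0.45, adjusted p = 0.0389) and Tcl1 courses (0.56, adjusted p = 0.0107), where day 4 and 5 samples of the empty vector were its lowest 2 over the course. Those 3 calls depended on single samples. The Esrrb call was lost without any 1 of the Esrrb shRNA sample of day 5 and the empty vector sample of day 5 (adjusted p = 0.065 to 0.121), the Tbx3 call without any 1 of the Tbx3 shRNA sample of day 5 and the empty vector samples of days 4 and 5 (adjusted p = 0.126 to 0.3), and the Tcl1 call without any 1 of the Tcl1 shRNA sample of day 5 and the empty vector samples of days 4 and 5 (adjusted p = 0.0544 to 0.153). Orc6 was not called in the Oct4 course (0.06, adjusted p = 0.852) or the Sox2 course (0.11, adjusted p = 0.66). Of the remaining subunit genes, Orc5 was lower after retinoic acid (log2 -0.81 ± 0.13 (SE), adjusted p = 5.48e-07) and Oct4 loss (-0.61 ± 0.13 (SE), adjusted p = 0.0003), and Orc2, Orc3 and Orc4 were called in none of the 8. In the Oct4 course Orc5 already differed by -0.61 on days 0 and 1, and its change beyond the empty vector was -0.005 (adjusted p = 0.997). After retinoic acid that measure was -0.63 (adjusted p = 0.016).

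Of the genes of the Mcm2-7 helicase, 6 of 6 were called lower in the Sox2 course. In the Nanog and retinoic acid courses 5 of 6 were lower, and in the Oct4 and Mm343880 courses 3 of 6. By limma 0 of 6 were called in the Esrrb, Tbx3 and Tcl1 courses, where 0, 1 and 2 had an unadjusted p under 0.05 and medians were -0.07, 0.02 and -0.14. Mcm2 had signals of 4612, 3653 and 3129 in Sox2 shRNA cells on days 4, 5 and 6, 5777, 4704 and 3778 in Nanog shRNA cells and 4804, 4888 and 4363 in Oct4 shRNA cells, against 7180.2, 7454 and 7083 in empty vector cells. No sample of these 3 courses overlapped the empty vector samples of those days. Mcm2 was 1.91-fold lower in the Sox2 course (-0.94 ± 0.10 (SE), adjusted p = 6.46e-10), 1.55-fold lower in the Oct4 course (-0.64 ± 0.10 (SE), adjusted p = 4.54e-06) and 1.55-fold lower in the Nanog course (-0.63 ± 0.10 (SE), adjusted p = 4.84e-06). It had 3408, 3142 and 3285 after retinoic acid (log2 -1.18 ± 0.10 (SE), adjusted p = 1.71e-13). In Mm343880 shRNA cells its difference was -0.55 ± 0.10 (SE), adjusted p = 0.000121, and the call was lost without the Mm343880 shRNA sample of day 6 (adjusted p = 0.118).

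Mcm3 had signals of 3107, 2767 and 2653 after retinoic acid and 5152, 4983 and 4052 in Mm343880 shRNA cells, against 7333, 8140.2 and 8388 in empty vector cells. The samples did not overlap. Log2 differences were -1.54 ± 0.13 (SE), adjusted p = 5.40e-14 and -0.76 ± 0.13 (SE), adjusted p = 3.29e-05, of which the Mm343880 call was lost without the Mm343880 shRNA sample of day 6 (adjusted p = 0.195). Mcm3 also differed by -0.75 in the Sox2, -0.66 in the Nanog and -0.65 in the Oct4 course, with adjusted p of 9.35e-06, 8.88e-05 and 0.000123. In Esrrb and Tbx3 shRNA cells Mcm3 differed from the empty vector by -0.01 and 0.01 (adjusted p = 0.986 and 0.976). Mcm6, chosen after its values were seen, differed by -0.72 in the Oct4 course (adjusted p = 0.000183), -0.72 in the Sox2 course (adjusted p = 0.000138) and -0.65 in the Nanog course (adjusted p = 0.000572).

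Mcm5 and Mcm7 had their largest differences after retinoic acid. Mcm5 had 5582, 5148 and 4549.6 on days 4 to 6 after retinoic acid, against 14754, 15565 and 22334 in empty vector cells, and was 3.43-fold lower (-1.78 ± 0.13 (SE), adjusted p = 3.20e-15). It was also lower in the Nanog (-0.46 ± 0.13 (SE), adjusted p = 0.00843) and Sox2 courses (-0.47 ± 0.13 (SE), adjusted p = 0.00579), lost without the Nanog shRNA sample of day 5 (adjusted p = 0.0798) and without the Sox2 shRNA sample of day 6 (adjusted p = 0.0624). In Oct4 shRNA cells it had 13510.0, 16540.2 and 18704, a range that overlapped the empty vector samples (log2 -0.10 ± 0.13 (SE), adjusted p = 0.678). Mcm7 had 10935, 10300.0 and 9465 after retinoic acid, against 19212, 16231 and 22845 in empty vector cells (log2 -0.90 ± 0.09 (SE), adjusted p = 2.43e-11). Mcm7 was lower by smaller amounts in the Nanog (-0.29 ± 0.09 (SE), adjusted p = 0.0174) and Sox2 courses (-0.27 ± 0.09 (SE), adjusted p = 0.0249), and only the Nanog samples overlapped those of the empty vector. The calls were lost without any 1 of the Nanog shRNA samples of days 5 and 6 and the empty vector samples of days 4 and 6 (adjusted p = 0.0556 to 0.201) and without any 1 of the Sox2 shRNA samples of days 5 and 6 and the empty vector samples of days 4 and 6 (adjusted p = 0.0573 to 0.138). The probe sets of Mcm3, Mcm5 and Mcm7, like those of Gins2, Fen1 and Rrm2, are of design types that may pick up related transcripts, so their levels are uncertain.

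Among the 7 genes that activate the helicase, Mcm10 and Cdc45 were the most widely lowered. Cdc45, a subunit of the active helicase, was called lower in all 8 courses. On days 4, 5 and 6 it had 753, 657 and 668 after retinoic acid, 866, 1078 and 1056 in Tcl1 shRNA cells and 1144, 1238 and 947 in Sox2 shRNA cells, against 1562, 1527 and 1679 in empty vector cells. No sample of any of the 8 courses on those days reached the lowest empty vector value. Differences in the 7 shRNA courses lay between -0.64 (Mm343880) and -0.47 (Sox2), and after retinoic acid Cdc45 was 2.23-fold lower (-1.15 ± 0.11 (SE), adjusted p = 4.75e-12). The Mm343880 call was lost without the Mm343880 shRNA sample of day 6 (adjusted p = 0.0866). The empty vector level was not flat: it was 1342, 1467, 1248, 1356, 1562, 1527, 1679 and 1708 from day 0 to day 7, with the 4 highest values on days 4 to 7. Within their own courses, Cdc45 changed from days 0 and 1 to days 4 to 6 by a called amount only in Oct4 shRNA (-0.59 ± 0.12 (SE), adjusted p = 0.00106) and retinoic acid cells (-0.42 ± 0.12 (SE), adjusted p = 0.00652). These calls were lost without the Oct4 shRNA sample of day 0 (adjusted p = 0.14) and without any 1 of the retinoic acid samples of days 0 and 6 (adjusted p = 0.0666 to 0.336). The second Cdc45 probe set is dim, with a mean signal of 41.2, and in the Nanog course it was called higher by 1.10 (adjusted p = 0.0374).

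Mcm10, which helps to start the helicase, was called lower in 7 of the 8 courses. It had 1021, 852 and 897 after retinoic acid, 1969, 1802 and 1903 in Oct4 shRNA cells and 1873, 1920.2 and 2037 in Sox2 shRNA cells, against 3299.7, 3151 and 3352 in empty vector cells, where it kept within 3063 and 3552 over all 8 days. Mcm10 was 3.45-fold lower (-1.79 ± 0.11 (SE), adjusted p = 2.02e-18), 1.71-fold lower (-0.77 ± 0.10 (SE), adjusted p = 2.56e-07) and 1.65-fold lower (-0.72 ± 0.10 (SE), adjusted p = 6.49e-07). On days 0 and 1 Mcm10 already differed by -0.41 in the retinoic acid, -0.51 in the Oct4 and -0.31 in the Sox2 course. Its change beyond the empty vector was -1.38 (adjusted p = 1.49e-08), -0.27 (adjusted p = 0.629) and -0.42 (adjusted p = 0.208) in these courses. In the Nanog course Mcm10 differed late by -0.52 ± 0.10 (SE), adjusted p = 0.000214, and in the Mm343880 course by -0.66 ± 0.11 (SE), adjusted p = 1.51e-05. The Esrrb (-0.34 ± 0.10 (SE), adjusted p = 0.0244) and Tcl1 calls (-0.38 ± 0.10 (SE), adjusted p = 0.015) were small. They were lost without any 1 of the Esrrb shRNA samples of days 4, 5 and 6 and the empty vector samples of days 4 and 5 (adjusted p = 0.0522 to 0.14) and without any 1 of the Tcl1 shRNA sample of day 5 and the empty vector sample of day 4 (adjusted p = 0.0659 to 0.0805). In the Tbx3 course, Mcm10 did not pass (log2 -0.27 ± 0.10 (SE), adjusted p = 0.0854), although its signals of 3055, 2474 and 2628 were all below those of empty vector cells.

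The GINS genes gave fewer calls. Gins1 was lower in the Sox2 (log2 -0.67 ± 0.15 (SE), adjusted p = 0.000848), Oct4 (-0.67 ± 0.15 (SE), adjusted p = 0.00118) and retinoic acid courses (-0.38 ± 0.15 (SE), adjusted p = 0.0347). Gins4 was lower in the Sox2 (-0.45 ± 0.11 (SE), adjusted p = 0.00211) and retinoic acid courses (-0.40 ± 0.11 (SE), adjusted p = 0.003). After retinoic acid the Gins1 call was lost without any 1 of the retinoic acid samples of days 3, 5 and 6 and the empty vector samples of days 3, 4, 5 and 6 (adjusted p = 0.0516 to 0.353) and the Gins4 call without the retinoic acid sample of day 6 (adjusted p = 0.125). Gins2 had 1316, 1778 and 1919 after retinoic acid, against 3441, 3336 and 3550.0 in empty vector cells, and was 1.99-fold lower (-0.99 ± 0.25 (SE), adjusted p = 0.000997), a call lost without the retinoic acid sample of day 6 (adjusted p = 0.242). Gins3, and Cdc7, the kinase that triggers the helicase, were called in none of the 8 courses.

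Pole, the catalytic subunit of the leading strand polymerase epsilon, was the most lowered member in the Nanog and Oct4 courses, and is named here after its values were seen. It had 659.9, 346 and 498 in Nanog shRNA, 701, 401 and 419 in Oct4 shRNA and 459.8, 414 and 748 in Sox2 shRNA cells on days 4 to 6, against 959.6, 967 and 1229 in empty vector cells. All 9 knockdown samples were below all 3 empty vector samples. Pole was 1.96-fold lower in the Nanog (-0.97 ± 0.21 (SE), adjusted p = 0.000383), 1.99-fold lower in the Oct4 (-0.99 ± 0.21 (SE), adjusted p = 0.000373) and 1.89-fold lower in the Sox2 course (-0.92 ± 0.21 (SE), adjusted p = 0.000673). After retinoic acid, where most members were at their lowest, Pole had 927, 941 and 672 and did not pass (log2 -0.30 ± 0.21 (SE), adjusted p = 0.241). It had begun 0.38 above the empty vector on days 0 and 1 there, and its change within the course was called (-0.71 ± 0.23 (SE), adjusted p = 0.0136), a call lost without any 1 of the retinoic acid samples of days 1 and 6 (adjusted p = 0.175 to 0.659). Beyond the change of the empty vector, Pole differed by -0.68 ± 0.33 (SE), adjusted p = 0.132 after retinoic acid, by -0.71 ± 0.33 (SE), adjusted p = 0.395 in the Oct4, by -0.81 ± 0.33 (SE), adjusted p = 0.216 in the Sox2 and by -1.15 ± 0.33 (SE), adjusted p = 0.0372 in the Nanog course.

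Pold1 and Pold2, the catalytic and accessory subunits of the lagging strand polymerase delta, were also lower in several courses. Pold1 had 1711, 1609.6 and 1179 after retinoic acid and 3046, 3189 and 3530.4 in Oct4 shRNA cells, against 5785, 4572 and 7464 in empty vector cells, and neither course overlapped the empty vector. It was 3.74-fold lower (-1.90 ± 0.15 (SE), adjusted p = 3.96e-14) and 1.76-fold lower (-0.81 ± 0.15 (SE), adjusted p = 9.40e-05). Pold2 had 2592, 2619 and 2279 after retinoic acid and 4772, 3631 and 2995 in Sox2 shRNA cells, against 8352, 5909 and 9194 in empty vector cells, and was 2.98-fold lower (-1.58 ± 0.16 (SE), adjusted p = 1.35e-11) and lower by the same test (-1.001 ± 0.156 (SE), adjusted p = 2.58e-06). In empty vector cells Pold2 was itself not steady. It had 4286, 4773, 6051, 6722, 8352, 5909, 9194 and 10200.4 from day 0 to day 7, and it was the 1 member that changed within that course, higher late than early (log2 0.71 ± 0.17 (SE), adjusted p = 0.0335). The differences of Pold2 from the empty vector thus include a moving comparison.

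Polymerase alpha with primase lays down the first stretch of each fragment, and after retinoic acid one of its genes was higher and another lower. Pola1, its catalytic subunit, had 651, 844 and 849 on days 4 to 6 after retinoic acid, against 461, 372 and 439.6 in empty vector cells, and was 1.72-fold higher (0.79 ± 0.25 (SE), adjusted p = 0.00836). The call was lost without any 1 of the retinoic acid sample of day 5 and the empty vector sample of day 5 (adjusted p = 0.0675 to 0.12). As change beyond the empty vector it was 0.39 ± 0.40 (SE), adjusted p = 0.546. The accessory subunit Pola2 was lower in the same cells (log2 -0.99 ± 0.14 (SE), adjusted p = 1.34e-07) and in the Oct4 course (-0.41 ± 0.14 (SE), adjusted p = 0.0395, lost without any 1 of the Oct4 shRNA samples of days 3, 4 and 6 and the empty vector samples of days 3, 4 and 6 (adjusted p = 0.0559 to 0.152)). Prim1, the catalytic subunit of primase, was lower in the Oct4 course (-0.49 ± 0.14 (SE), adjusted p = 0.0081), where it had 1178, 1051 and 1156, against 1528, 1448 and 1964 in empty vector cells. That call was lost without the Oct4 shRNA sample of day 5 (adjusted p = 0.0863). Prim1 was higher in the Nanog course (0.38 ± 0.14 (SE), adjusted p = 0.0384) and after retinoic acid (0.35 ± 0.14 (SE), adjusted p = 0.0271), both with small differences. On days 0 and 1 of the retinoic acid course Prim1 was already 0.42 higher, and its change beyond the empty vector was -0.06 ± 0.21 (SE), adjusted p = 0.879. In the Nanog course that measure was 0.24 ± 0.21 (SE), adjusted p = 0.643. The late calls were lost without any 1 of the Nanog shRNA samples of days 5 and 6 and the empty vector samples of days 3, 4 and 5 (adjusted p = 0.0557 to 0.539) and without any 1 of the retinoic acid samples of days 5 and 6 and the empty vector sample of day 5 (adjusted p = 0.103 to 0.175). Prim2 was called in none of the 8 courses.

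**Figure D3:**
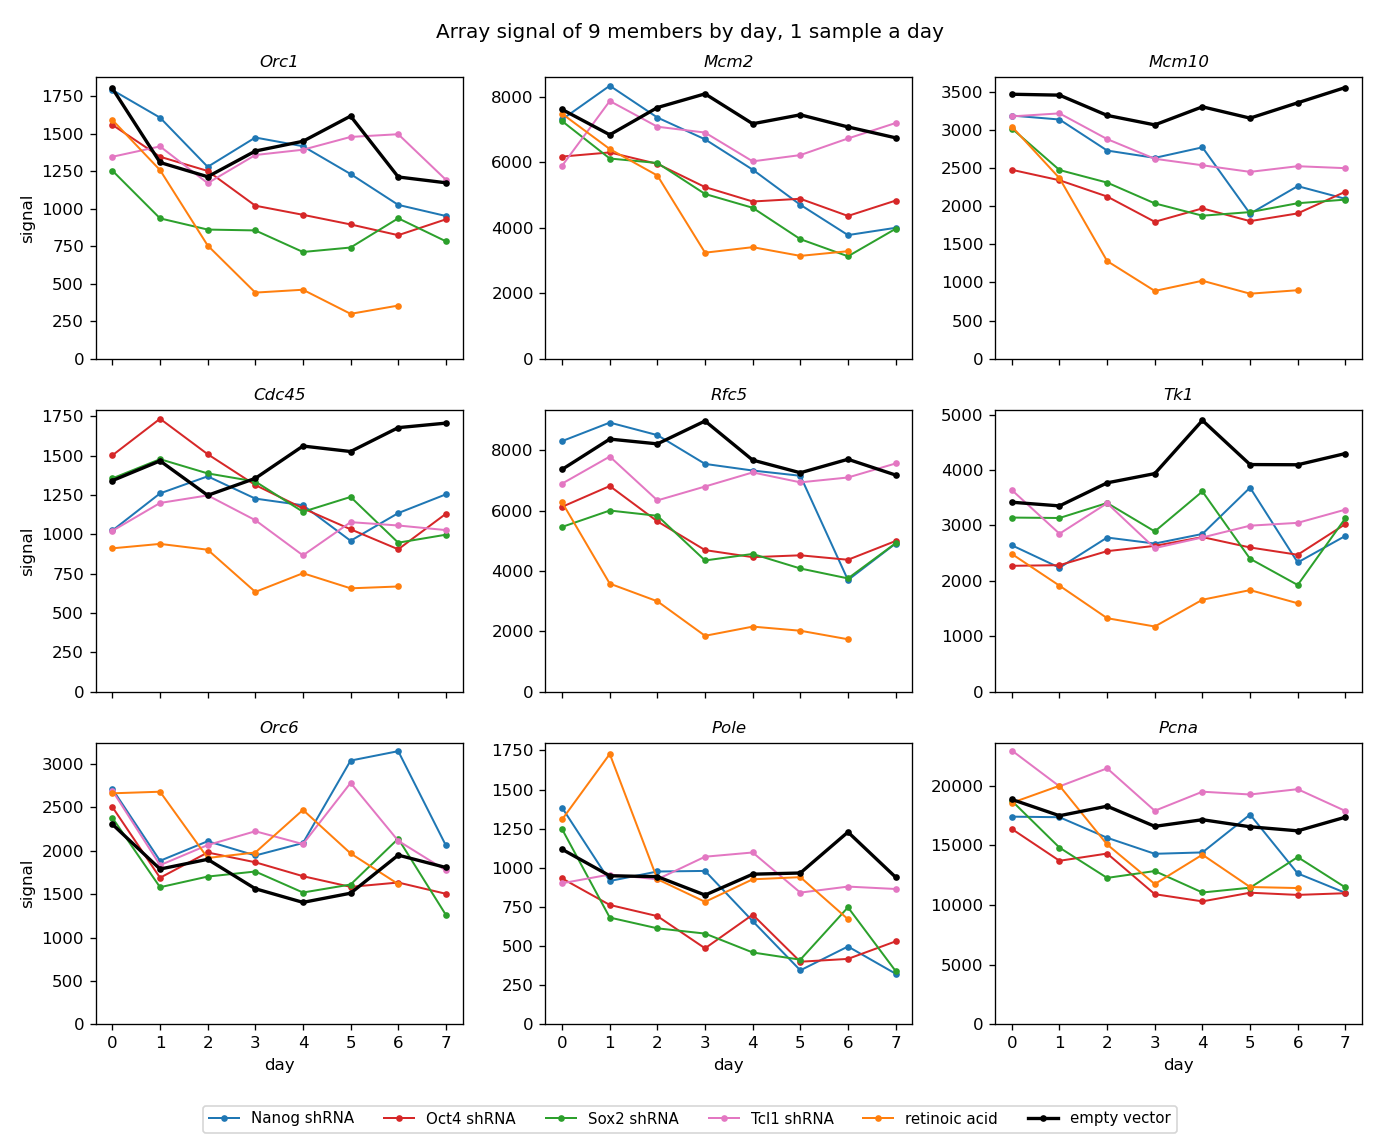
Array signal (linear scale from 0) of 9 genes by day, 1 sample a day, in 5 treated courses (thin coloured lines) and in empty vector cells (thick black line). Mcm10 and Rfc5 drop within 3 days of retinoic acid, Cdc45 rises after day 3 in empty vector cells, Orc6 peaks on days 5 and 6 in Nanog shRNA cells, and the Pole lines of the Nanog, Oct4 and Sox2 courses end lowest.

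Rfc5, a subunit of the clamp loader, had the largest late difference from empty vector cells of all 43 genes after retinoic acid. It already differed by -0.67 on days 0 and 1 of that course. As change beyond the empty vector it was -1.27 ± 0.19 (SE), adjusted p = 9.24e-07, smaller in size than that of Orc1 (-1.70). Rfc5 was also lower in other courses. Its signals on days 4, 5 and 6 were 2154, 2017 and 1734 after retinoic acid, 4563, 4081 and 3752 in Sox2 shRNA cells and 4456, 4518 and 4370.3 in Oct4 shRNA cells, against 7675, 7254 and 7702 in empty vector cells. These ranges did not meet that of the empty vector. Rfc5 was 3.83-fold lower (-1.94 ± 0.12 (SE), adjusted p = 5.50e-18), 1.84-fold lower (-0.88 ± 0.12 (SE), adjusted p = 1.17e-07) and 1.70-fold lower (-0.77 ± 0.12 (SE), adjusted p = 2.56e-06). In the Nanog course the signals of 7329, 7154 and 3698 held 1 low day among 3, and the call (log2 -0.34 ± 0.12 (SE), adjusted p = 0.0303) was lost without any 1 of the Nanog shRNA sample of day 6 and the empty vector samples of days 5 and 6 (adjusted p = 0.0639 to 0.292). Pcna encodes the sliding clamp itself. It had 10305, 11031 and 10848 in Oct4 shRNA, 11049, 11451 and 14012 in Sox2 shRNA and 14216, 11509 and 11422 in retinoic acid cells, against 17144, 16553 and 16213 in empty vector cells. None of the 9 samples reached the empty vector range, and differences were -0.64 ± 0.10 (SE), adjusted p = 3.31e-06, -0.46 ± 0.10 (SE), adjusted p = 0.000381 and -0.47 ± 0.10 (SE), adjusted p = 8.58e-05. The retinoic acid call was lost without the retinoic acid sample of day 6 (adjusted p = 0.0572). In the Esrrb, Tbx3 and Tcl1 courses Pcna lay above the empty vector by 0.23, 0.17 and 0.21, and none of these passed (adjusted p = 0.134, 0.307 and 0.196). Rfc1, the large loader subunit, was the 1 member called higher in the Mm343880 course, with 1366, 1625 and 982, against 866, 857 and 708 in empty vector cells (log2 0.70 ± 0.23 (SE), adjusted p = 0.0366). That call was lost without any 1 of the Mm343880 shRNA samples of days 3, 5 and 6 and the empty vector samples of days 5 and 6 (adjusted p = 0.0571 to 0.634). Rfc4 was called lower in the Oct4, Sox2 and retinoic acid courses, Rfc2 after retinoic acid and Rfc3 in the Oct4 course. The Rfc4 call was lost without any 1 of the Sox2 shRNA sample of day 5 and the empty vector sample of day 6 (adjusted p = 0.0545 to 0.262) in the Sox2 course and without the retinoic acid sample of day 6 (adjusted p = 0.272) after retinoic acid. That of Rfc3 was lost without any 1 of the Oct4 shRNA samples of days 4 and 6 and the empty vector sample of day 5 (adjusted p = 0.0889 to 0.185).

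Of the replication protein A genes, which cover single-stranded DNA, Rpa2 was the most widely lowered, in all courses but Tcl1. It had 1491, 1324 and 1146 after retinoic acid, 1989, 1922 and 1855 in Mm343880 shRNA cells and 2101, 1796 and 1823 in Oct4 shRNA cells, against 3793, 3897 and 3274 in empty vector cells. All 9 samples were below the empty vector samples. Rpa2 was 2.76-fold lower (-1.47 ± 0.11 (SE), adjusted p = 7.45e-15), 1.90-fold lower (-0.92 ± 0.11 (SE), adjusted p = 9.68e-08) and 1.86-fold lower (-0.90 ± 0.11 (SE), adjusted p = 3.99e-08). It also passed in the Sox2 (-0.62 ± 0.11 (SE), adjusted p = 2.75e-05), Nanog (-0.56 ± 0.11 (SE), adjusted p = 0.000153), Esrrb (-0.55 ± 0.11 (SE), adjusted p = 0.000364) and Tbx3 courses (-0.50 ± 0.11 (SE), adjusted p = 0.00171), of which the Tbx3 call was lost without the Tbx3 shRNA sample of day 5 (adjusted p = 0.0526). In Tcl1 shRNA cells it had 2898, 3092 and 2949.9 and did not pass (-0.30 ± 0.11 (SE), adjusted p = 0.0816). Rpa1, the large subunit, was also lower in the Oct4 course (-0.42 ± 0.13 (SE), adjusted p = 0.0169, lost without any 1 of the Oct4 shRNA sample of day 4 and the empty vector sample of day 5 (adjusted p = 0.0739 to 0.0777)). It had 10438, 8928 and 7773 after retinoic acid and 12170.2, 12162 and 11577 in Nanog shRNA cells, against 16758, 16771 and 16661 in empty vector cells. Neither course reached the empty vector range, and the differences were -0.93 ± 0.13 (SE), adjusted p = 4.29e-08 and -0.47 ± 0.13 (SE), adjusted p = 0.00547. In Sox2 shRNA cells Rpa1 had 14111, 17877 and 16905, a range that takes in the empty vector values (log2 -0.04 ± 0.13 (SE), adjusted p = 0.876). Rpa3 was called in none of the 8.

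Lig1, the ligase that seals Okazaki fragments, had 1915, 1794 and 1875 after retinoic acid, 2791, 3151 and 3586 in Oct4 shRNA cells and 4553, 3169 and 2852 in Nanog shRNA cells, against 5919, 4806 and 5983 in empty vector cells. All 9 values were lower than any of the empty vector. Lig1 was 2.96-fold lower (-1.56 ± 0.14 (SE), adjusted p = 3.32e-13), 1.71-fold lower (-0.78 ± 0.14 (SE), adjusted p = 2.75e-05) and 1.55-fold lower (-0.64 ± 0.14 (SE), adjusted p = 0.000406). On days 0 and 1 Lig1 already differed by -0.47 in the retinoic acid and -0.58 in the Oct4 course, but by -0.001 in the Nanog course. Its change beyond the empty vector was -1.09 (adjusted p = 0.000116), -0.20 (adjusted p = 0.845) and -0.64 (adjusted p = 0.0913) in these courses. Fen1, the nuclease that trims the flap between fragments, gave the largest difference of the Sox2 course, 1450.0, 2637 and 2407 on days 4 to 6, against 5321, 6213 and 3444 in empty vector cells (log2 -1.07 ± 0.34 (SE), adjusted p = 0.0183). Its probe set was erratic, between 3152 and 8700.5 with a median of 4785 in empty vector cells. The call was lost without any 1 of the Sox2 shRNA sample of day 4 and the empty vector samples of days 4 and 5 (adjusted p = 0.0549 to 0.2).

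Of the nucleotide supply genes, Tk1 stood apart from those of ribonucleotide reductase. Tk1 encodes the thymidine kinase of the salvage route. It had 1658, 1831 and 1594 after retinoic acid, 2908, 2034 and 2175 in Mm343880 shRNA cells, 2998, 2538 and 2847 in Tbx3 shRNA cells and 2781, 2994 and 3045 in Tcl1 shRNA cells, against 4894, 4097 and 4093 in empty vector cells. In every one of the 8 courses all samples of those days were below the lowest empty vector sample. Tk1 was called lower in all 8, from -0.53 (Nanog, adjusted p = 0.00567) to -1.35 (retinoic acid, adjusted p = 1.12e-10). The Tbx3 call was lost without the Tbx3 shRNA sample of day 5 (adjusted p = 0.0503) and the Tcl1 call without the empty vector sample of day 4 (adjusted p = 0.0653). On days 0 and 1 Tk1 already differed by -0.435 in the Nanog, -0.56 in the Oct4 and -0.67 in the retinoic acid course. Its change beyond the empty vector was -0.095 in the Nanog and -0.14 in the Oct4 course (adjusted p = 0.905 and 0.913). In the other shRNA courses it was -0.51 (Esrrb) to -0.83 (Mm343880), with no call. After retinoic acid it was -0.68 and was called (adjusted p = 0.0236). Like Cdc45, Tk1 was higher on later days of the empty vector course, at 3417, 3351, 3767, 3934, 4894, 4097, 4093 and 4296 from day 0 to day 7.

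Ribonucleotide reductase makes deoxynucleotides from ribonucleotides. Rrm2, its small subunit, had 5877, 5432 and 6290.3 in Sox2 shRNA cells, against 8323, 7568 and 7659 in empty vector cells (log2 -0.41 ± 0.11 (SE), adjusted p = 0.00499), a call lost without the Sox2 shRNA sample of day 5 (adjusted p = 0.102). On days 0 and 1 of the Sox2 course Rrm2 already differed by -0.37, and its change beyond the empty vector was -0.04 (adjusted p = 0.965). After retinoic acid Rrm2 had 8588, 9271 and 7523, a range that overlapped the empty vector (0.08 ± 0.11 (SE), adjusted p = 0.606). Rrm1, its large subunit, was lower in Oct4 shRNA cells (-0.37 ± 0.10 (SE), adjusted p = 0.00749, lost without the Oct4 shRNA sample of day 6 (adjusted p = 0.0508)). After retinoic acid it differed by -0.25 ± 0.10 (SE), adjusted p = 0.0377 with overlapping samples, a call lost without any 1 of the retinoic acid samples of days 3, 5 and 6 and the empty vector samples of days 4, 5 and 6 (adjusted p = 0.0607 to 0.546). It was higher in Tbx3 shRNA cells, at 6197, 6162 and 5844, against 4852, 4624 and 4276 in empty vector cells (0.40 ± 0.10 (SE), adjusted p = 0.00604). Rrm1 was already 0.40 higher on days 0 and 1 of the Tbx3 course, and its change beyond the empty vector was 0.00 (adjusted p = 0.998). After retinoic acid its log2 difference was already -0.42 on those days, and that measure was 0.17 (adjusted p = 0.513). Tyms, the thymidylate synthase gene, was measured on a dim probe set with a mean signal of 119.9, and was called in none of the 8 courses.

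Within-course changes compare days 4 to 6 with days 0 and 1 of the same cells, and so do not use the empty vector. After retinoic acid 27 of 43 members were lower late than early, against 14.9% of all genes. The counts were 14 in the Mm343880 course (all genes: 3.59%), 13 in the Sox2 course (3.20%), 12 in the Oct4 course (4.05%) and 9 in the Nanog course (4.53%). They were 3 in the Esrrb course (1.63%) and 3 in the Tbx3 course (1.04%), where Rpa2, Mcm10 and Mcm2 were the members in both. In Tcl1 shRNA cells limma called 0 (all genes: 0.556%), and 2 were lower at an unadjusted p under 0.05. In empty vector cells Pold2 alone was called, and higher (all genes higher: 0.536%). Pole changed by -1.18 ± 0.23 (SE), adjusted p = 0.000298 in the Nanog course, and Mcm2 by -0.82 ± 0.11 (SE), adjusted p = 9.63e-07 in the Sox2 course. These calls were lost without the Nanog shRNA sample of day 0 (adjusted p = 0.69) and without the Sox2 shRNA sample of day 0 (adjusted p = 0.169).

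These counts leaned on the smooth curve and on the day 0 samples. With plain means of the same days in place of the curve, they were 22 after retinoic acid, 5 in the Mm343880, 3 in the Nanog, 3 in the Oct4 and 2 in the Sox2 course. Without the day 0 sample of its own course, the count was 2 in the Nanog, 0 in the Oct4, 0 in the Sox2, 1 in the Esrrb, 0 in the Tbx3 and 1 in the Mm343880 course. At an unadjusted p under 0.05, limma then still had 8 members lower in the Oct4, 6 in the Sox2 and 4 in the Tbx3 course. Medians over the 43 genes moved less, to -0.30 in the Nanog, -0.26 in the Oct4 and -0.24 in the Sox2 course, against -0.25, -0.35 and -0.33 with all samples. Other single samples also mattered. The count was 5 without day 5 in the Nanog course, 6 and 7 without day 5 and day 6 in the Oct4 course, and 7 and 5 without day 4 and day 5 in the Sox2 course. It was 6 and 1 without day 1 and day 6 in the Mm343880 course, 1 without day 5 in the Tbx3 course, and 10 without day 6 in the retinoic acid course. The empty vector call was lost without any 1 of days 0, 1, 2, 4 and 6.

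Direct comparison of courses leaves the empty vector out. Averaged over the Nanog, Oct4 and Sox2 courses, 27 of 43 members were lower than averaged over the Esrrb, Tbx3 and Tcl1 courses, against 16.5% of all genes. None was called higher (all genes: 14.9%), and none had an unadjusted p under 0.05 in that direction. The median difference was -0.27, and leaving out single samples gave 25 to 28 members. Pole (-0.94 ± 0.12 (SE), adjusted p = 2.44e-08), Rfc5 (-0.69 ± 0.07 (SE), adjusted p = 3.56e-11), Mcm3 (-0.64 ± 0.07 (SE), adjusted p = 1.57e-09), Pcna (-0.62 ± 0.06 (SE), adjusted p = 6.69e-12) and Mcm2 (-0.58 ± 0.06 (SE), adjusted p = 8.02e-11) were, with Fen1, among those that differed most. Cdc45 and Tk1 were not among the 27. Pcna already lay apart on days 0 and 1. It then stood at -0.095, -0.26 and -0.14 from the empty vector in the Nanog, Oct4 and Sox2 courses. In the Esrrb, Tbx3 and Tcl1 courses it stood at 0.175, 0.185 and 0.25. Rfc5 then stood at 0.13, -0.30 and -0.45, against 0.205, 0.39 and -0.13. Pole had 0.17, -0.28 and -0.11, against 0.03, 0.10 and -0.17. Changes from those days were not compared between these means.

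**Figure D4:**
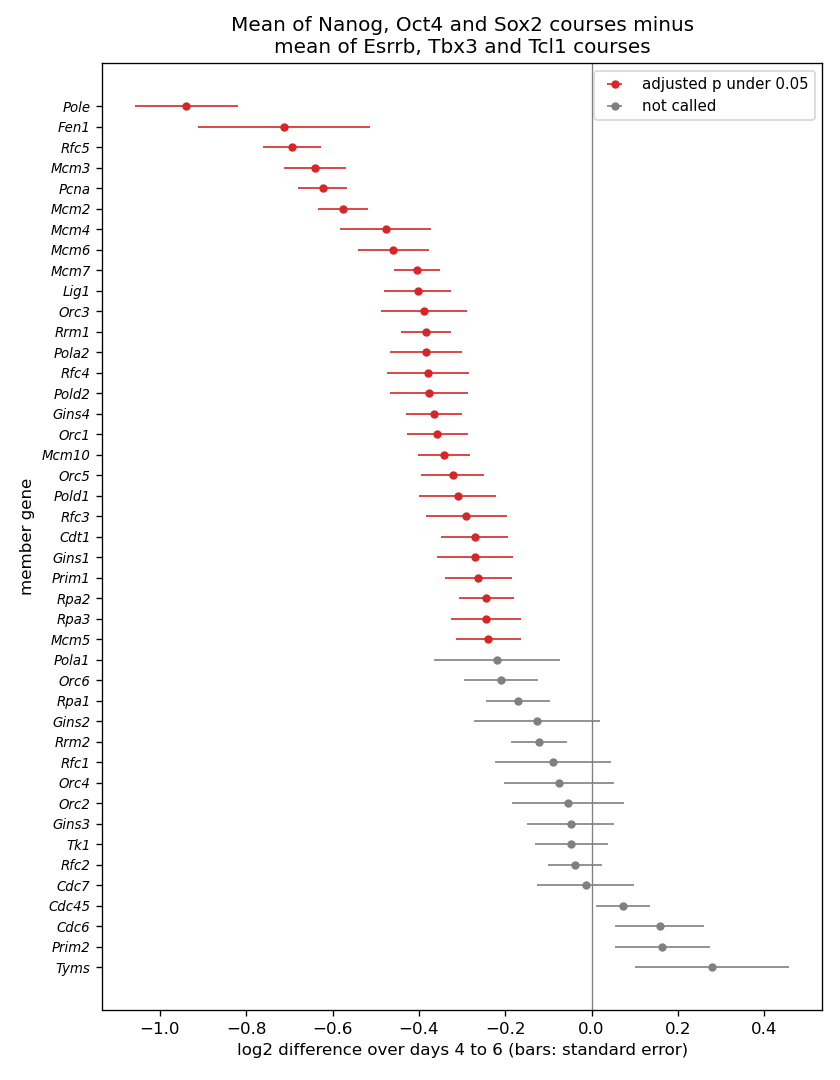
Log2 difference over days 4 to 6 between the mean of the Nanog, Oct4 and Sox2 shRNA courses and the mean of the Esrrb, Tbx3 and Tcl1 shRNA courses for 43 genes, with standard errors, and called genes in red. The 27 called genes all lie left of 0, with Pole farthest.

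Between single courses fewer members differed. Against the Nanog course, the Oct4 course had 10 members lower (all genes: 8.66%) and none higher by limma (all genes: 3.75%), with 1 higher at an unadjusted p under 0.05. They included Orc5 (-0.93 ± 0.13 (SE), adjusted p = 9.21e-07), Prim1 (-0.86 ± 0.14 (SE), adjusted p = 1.26e-05), Orc6 (-0.68 ± 0.15 (SE), adjusted p = 0.00131) and Pcna (-0.47 ± 0.10 (SE), adjusted p = 0.000905), the last lost without the Nanog shRNA sample of day 5 (adjusted p = 0.0634). Sox2 against Nanog gave 9 lower and 1 higher (all genes: 5.80% and 4.97%), among them Orc6 (-0.62 ± 0.15 (SE), adjusted p = 0.00297), Orc1 (-0.60 ± 0.12 (SE), adjusted p = 0.000608) and Rfc5 (-0.54 ± 0.12 (SE), adjusted p = 0.00124). Rpa1 was the 1 higher (0.43 ± 0.13 (SE), adjusted p = 0.0211). The Orc6 call was lost without the Sox2 shRNA sample of day 5 (adjusted p = 0.0641), that of Rfc5 without the Nanog shRNA sample of day 5 (adjusted p = 0.112) and that of Rpa1 without any 1 of the Nanog shRNA sample of day 5 and the Sox2 shRNA sample of day 5 (adjusted p = 0.0677 to 0.215). Sox2 against Oct4 gave 2 lower, Pold2 and Rrm2, and 1 higher, Gins3 (all genes: 2.62% and 5.10%). All 3 depended on single samples. The Pold2 call was lost without any 1 of the Oct4 shRNA samples of days 4, 5 and 6 and the Sox2 shRNA sample of day 6 (adjusted p = 0.0519 to 0.17), that of Rrm2 without the Sox2 shRNA sample of day 5 (adjusted p = 0.145) and that of Gins3 without any 1 of the Oct4 shRNA samples of days 4 and 5 (adjusted p = 0.0575 to 0.0778). Some of these gaps were there from the start. On days 0 and 1 Orc5 stood at -0.61 from the empty vector in the Oct4 and 0.22 in the Nanog course. Orc1 stood at -0.475 in the Sox2 and 0.10 in the Nanog course, and Rfc5 at -0.45 and 0.13. Rrm2 stood at -0.37 in the Sox2 and 0.17 in the Oct4 course. Orc6 was closer, at 0.16 (Nanog), 0.045 (Oct4) and -0.05 (Sox2). Changes from those days were not compared between courses. Day 5 and 6 samples decided part of the counts. Without the Nanog shRNA sample of day 5, the counts were 5 for Oct4 against Nanog and 3 for Sox2 against Nanog. Without the Oct4 shRNA sample of day 5 they were 6 for Oct4 against Nanog and 1 for Sox2 against Oct4, and without that of day 6 Oct4 against Nanog had 6. Without the Sox2 shRNA sample of day 5, Sox2 against Nanog had 4, and without that of day 4 or of day 7, Sox2 against Oct4 had 7.

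Across the 70 samples the members differed in how closely they tracked the group. The correlation of a gene's log2 signal with the median of the other 42 was 0.91 for Mcm10, 0.88 for Mcm2, 0.83 for Rfc5 and 0.82 for Mcm3. It was between -0.15 and 0.02 for Gins3, Orc4, Rfc1 and Tyms. Samples of 1 course share cells and scaling, so the values are descriptive. Genes with an E2F-type match and genes with a window but no match are set side by side here as a description, with no test. Mcm10, whose window ends within a possible match, was counted with the latter. With a match and without one, 9 of 13 and 13 of 23 were lower after retinoic acid (medians -1.29 and -0.64), where 23.5% of all genes were. The counts were 7 and 14 in the Oct4 (medians -0.49 and -0.46, all genes 10.7%), 8 and 11 in the Sox2 (-0.47 and -0.26, 12.2%), 6 and 8 in the Nanog (-0.36 and -0.17, 10.0%) and 7 and 5 in the Mm343880 course (-0.55 and -0.14, 7.19%). They were 0 and 4 in the Esrrb (5.30%), 1 and 3 in the Tbx3 (5.69%) and 0 and 3 in the Tcl1 course (4.05%).

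Other genes of S phase and of mitosis were called in both directions. Of 38 other replication fork and S-phase genes tested, 16 were lower and 9 higher after retinoic acid, 17 and 1 in the Sox2 course, 12 and 0 in the Oct4 course and 8 and 2 in the Nanog course. As shares, 42.1% were lower and 23.7% higher after retinoic acid (all genes: 23.5% and 27.5%), 44.7% lower in the Sox2 (all genes: 12.2%), 31.6% in the Oct4 (10.7%) and 21.1% in the Nanog course (10.0%). The share higher after retinoic acid was thus near that of all genes. After retinoic acid the largest differences among them were those of Dck, a nucleoside kinase gene (1.98 ± 0.24 (SE), adjusted p = 1.89e-09), Chtf18, of an alternative clamp loader (-1.96 ± 0.14 (SE), adjusted p = 8.39e-16), Top1, the topoisomerase I gene (1.79 ± 0.27 (SE), adjusted p = 3.04e-07), and Rrm2b, an alternative reductase subunit gene (1.72 ± 0.27 (SE), adjusted p = 5.77e-07). Of 27 mitosis genes 18 were lower and 2 higher after retinoic acid, and 13, 12 and 6 were lower in the Sox2, Nanog and Oct4 courses, as shares 66.7% after retinoic acid (all genes: 23.5%), 48.1% for Sox2 (12.2%), 44.4% for Nanog (10.0%) and 22.2% for Oct4 (10.7%). In the Esrrb course limma called 0 of the 27, with 3 at an unadjusted p under 0.05. After retinoic acid the separase gene Espl1 (-1.88 ± 0.15 (SE), adjusted p = 1.22e-14), the kinase gene Nek2 (-1.60 ± 0.17 (SE), adjusted p = 1.65e-10) and Cdc20, which activates the anaphase-promoting complex (-1.57 ± 0.11 (SE), adjusted p = 7.86e-16), were lower. The proliferation marker Mki67 was higher there (1.43 ± 0.38 (SE), adjusted p = 0.00132).

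Of 30 regulators of the G1/S step tested, 7 were lower (23.3%) and 17 higher (56.7%) after retinoic acid, where 23.5% and 27.5% of all genes were. In the Sox2 course 8 were lower (26.7%) and 7 higher (23.3%), against 12.2% and 12.1% of all genes. The share lower after retinoic acid was thus close to that of all genes. The largest differences after retinoic acid were those of the kinase inhibitor gene Cdkn1c, which the trophectoderm list also holds (3.73 ± 0.23 (SE), adjusted p = 5.50e-18), the D-type cyclin gene Ccnd2 (3.14 ± 0.22 (SE), adjusted p = 3.18e-16), its partner kinase gene Cdk6 (2.81 ± 0.36 (SE), adjusted p = 1.14e-08) and E2f6, of a repressor of the E2F family (1.95 ± 0.20 (SE), adjusted p = 1.63e-11).

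Markers of other cell types differed from the empty vector in courses with many replication calls and in courses with few. The trophectoderm and fibroblast lists were in part chosen after earlier results of these data. Of 21 trophectoderm markers tested, 19 were higher in the Nanog (all genes: 12.0%), 18 in the Oct4 (6.66%) and 17 in the Sox2 course (12.1%). The 22 listed trophectoderm genes summed to 73640 to 180200, 117300 to 134600 and 103400 to 135800 on days 4 to 6 of those courses, against 12140 to 23260 in empty vector cells. The sums were 25320 to 70630 in the Esrrb, 15370 to 50140 in the Tbx3, 17780 to 31950 in the Tcl1, 18380 to 45110 in the Mm343880 and 26520 to 34120 in the retinoic acid course. Elf5 never exceeded the table median in the Nanog, Oct4 and Sox2 courses, nor did Gata3 in Oct4 and Sox2 shRNA cells. After retinoic acid 12 of 14 fibroblast and 10 of 16 extraembryonic endoderm markers were higher, where 27.5% of all genes were. Sums of these lists were 47550 to 57160 and 41180 to 57160, against 12270 to 16030 and 9038 to 11510 in empty vector cells. Fibroblast sums were also 40410 to 44620 in the Esrrb, 32740 to 36460 in the Sox2, 26210 to 32580 in the Tcl1, 23390 to 48170 in the Mm343880 and 20330 to 30860 in the Tbx3 course, and 9165 to 16560 in the Nanog and 10990 to 14720 in the Oct4 course. Endoderm sums in the 7 shRNA courses were 11910 to 25250. Lum and Prrx1 of the fibroblast list and Afp and Hnf4a of the endoderm list never exceeded the table median after retinoic acid. Median signals of the A arrays were 265.4 to 382.9 after retinoic acid and 244.5 to 330.9 in empty vector cells. The part of these differences in the lower levels of replication genes was not tested. With quantile normalization the median of all genes after retinoic acid was -0.21 in place of 0.04, and that of the 43 members was -0.67 in place of -0.68, with 29 lower and 1 higher. Of all genes, 4839 were then lower and 3210 higher, against 3428 and 4002 without it, and in the Nanog course 1932 and 1535 against 1456 and 1747.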

How the data were processed

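RNA of 70 samples was hybridised to 140 arrays, an A and a B array each. Signal intensities are deposited on a linear scale and were made by the authors with MAS5 (no version is given in the sources used here), per the submitters' processing notes. In the files, they are scaled so that the trimmed mean of 100 shared control probe sets is 2500 on every array. From them log2(signal + pseudocount) was computed, the pseudocount being 63.1 for A and 21.8 for B (percentile 20 of each), so that folds of dim genes are understated. Of 45265 probe sets, 35041 named 1 gene, 936 several and 9160 none, and 128 were controls. A gene was tested where its signal exceeded the table median (283.3 for A, 89.2 for B) on at least 3 arrays. Models came from limma 3.58.1 (R 4.3.3; lmFit, then eBayes with trend). Each course had its own natural spline in time (3 df), A and B were fitted apart over all samples, and 34 residual degrees of freedom remained. P-values were two-sided and adjusted by Benjamini-Hochberg over both arrays, with a threshold of 0.05, and the model was tested on simulated data. Precision is limited by the number of arrays.

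The late difference averages days 4, 5 and 6 of the curves, and the change sets them against days 0 and 1. The members and gene lists were chosen with earlier results of these data known. Members with values by day are, in each role, the one with the largest average late difference and the one with the highest signal, then any called with a log2 difference of at least 1 in size or against most calls of its course. From other lists, up to 4 genes are named from the course with most calls. The alternatives were a pseudocount of 1, no filter, quantile normalization, the probe set by percentile rank, no spline (plain means of days for changes, and for late differences days 4 to 6 with day as a block), the change beyond the empty vector, only the 2 courses compared, and each sample left out. Promoter windows are those of RefSeq (GRCm38.p6). A course against Dppa4 was not analysed here.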

Additional observations from a re-analysis of the deposited data

Results flagged for a closer look

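In 225 sets of 1 gene in 1 course, 20 held a single day far from the rest of its set by Dixon's criterion, which chance meets in about 1 of 20 sets. Most were high values on day 0. Rrm2 was highest on day 0 at 11029.1 in the Oct4, 7838.6 in the Sox2 and 9361 in the Mm343880 shRNA course, and at 9500.6 in empty vector cells. Other high day 0 signals were those of Orc1 in the Sox2 (1254.1) and Mm343880 courses (1765.6), Cdt1 (10718.1) and Rfc5 (6271.2) after retinoic acid, Prim1 in the Oct4 (1953.3) and Tcl1 courses (2440.7), Pola1 in the Oct4 course (556.7) and in empty vector cells (993.3), and Rfc1 in the Nanog course (1293.8) and in empty vector cells (1351.8). Pold2 was lowest on day 0 of the Tbx3 course (4641). On other days, Rpa1 was high on day 1 after retinoic acid (24774.5, with the next value at 14301.8), Fen1 on day 1 (8980.4, next 4040.1) and Tk1 on day 5 (3680.7) of the Nanog course, and Gins2 on day 4 of the Mm343880 course (4760.2). Cdc6 was low on day 4 of the Tcl1 course (871.4, next 1421.1).

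Differences between courses were tested directly. Members with different late levels numbered 10 between Sox2 and Nanog, 3 between Sox2 and Oct4, 10 between Oct4 and Nanog, and 27 between the mean of those 3 courses and the mean of Esrrb, Tbx3 and Tcl1.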

How the results depend on the processing

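Of the alternative values for named members 4309 kept their side of the threshold, 205 lost the call and 28 gained one. Values called neither in the main nor in the alternative fit were counted among the 4309 whatever their direction. Another 8, called in either fit, turned round. Of the counts 358 stayed within 1.5 times and 51 did not. The causes were not tested. With the probe set chosen by percentile rank, Orc1 turned to 0.07 in the Oct4 (adjusted p = 0.911), 0.24 in the Sox2 (adjusted p = 0.576), 0.60 in the Tbx3 (adjusted p = 0.136), 0.78 in the Mm343880 (adjusted p = 0.0366) and 0.32 in the retinoic acid course (adjusted p = 0.331). As change beyond the empty vector, Rrm1 was 0.00 in the Tbx3 course (adjusted p = 0.998) and 0.17 after retinoic acid (adjusted p = 0.513), and Prim1 was -0.06 after retinoic acid (adjusted p = 0.879). By that measure limma called 3 members in the Nanog, 2 in the Oct4, 2 in the Sox2, 3 in the Mm343880 and 0 in the Esrrb, Tbx3 and Tcl1 courses, where 7, 10 and 3 had an unadjusted p under 0.05. Without the spline, within-course counts were 3 in the Nanog, 3 in the Oct4, 2 in the Sox2 and 5 in the Mm343880 course, and 0 in the Esrrb, Tbx3 and empty vector courses, where limma gave 3, 5 and 2 at an unadjusted p under 0.05. Late counts over days 4 to 6 with day as a block were 3 in the Esrrb and 2 in the Tcl1 course, and 13 in the Nanog, 19 in the Oct4, 19 in the Sox2, 4 in the Tbx3, 10 in the Mm343880 and 26 in the retinoic acid course. Only the 2 courses compared gave 8 in the Esrrb course. With quantile normalization Oct4 against Nanog had 5.

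Without single samples, late counts ran from 3 to 5 in the Esrrb, 2 to 7 in the Tbx3, 1 to 6 in the Tcl1 and 6 to 15 in the Mm343880 course. Within-course counts ran from 2 to 9 in the Nanog, 0 to 12 in the Oct4, 0 to 14 in the Sox2, 1 to 3 in the Esrrb, 0 to 3 in the Tbx3, 1 to 12 in the Mm343880, 10 to 28 in the retinoic acid and 0 to 1 in the empty vector course. Direct counts ran from 3 to 12 for Sox2 against Nanog, 1 to 7 for Sox2 against Oct4 and 5 to 12 for Oct4 against Nanog. Tyms lies on a dim probe set, where a small difference could not be seen.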
